A study of Mus musculus with 39 samples.

Results

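The response of wild-type mice to acute pancreatitis (AP) was compared between lung and colon. It was taken from the 20 wild-type (WT) libraries among the 39 of the series, and covered the 12932 genes, of 55357 listed in both tables, with at least 1 FPKM in at least 4 WT libraries of each tissue. FPKM are read counts scaled to gene length and to the library total. The 4 groups were lung with AP, lung after a sham treatment, colon with AP and colon after sham, with 5 libraries each. All were from C57BL/6N mice labelled WT, with no deletion of Cd177, the gene removed in the knockout (KO) animals of the other libraries. The way pancreatitis was brought about, the time of sampling and the age of the mice are not stated in the labels. The labels also do not tie a lung and a colon library to 1 mouse or say that every library is a mouse of its own, so p-values measure the spread between libraries.

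Acute pancreatitis is an inflammation of the pancreas, the organ whose acinar cells make digestive enzymes. Cytokines, circulating neutrophils and stress hormones carry its effects to distant organs, of which the lung and the gut are the best known. In the lung neutrophils gather and the barrier of endothelium and alveolar epithelium can leak, while in the colon the epithelial barrier to bacteria can weaken. The circadian clock and the adrenal glucocorticoids, both described further on, act in nearly every organ.

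The libraries matched their tissue labels. Sftpc, the surfactant protein C gene of alveolar type 2 cells, lay between 13696 and 27933 FPKM in lung and at no more than 0.132 FPKM in colon, and Cdx2, a transcription factor of intestinal epithelium, was listed at 0 in every lung library and lay between 45.3 and 141 FPKM in colon. Count totals recovered from the steps of the FPKM values were 57900000 to 71200000 per library in lung and 55600000 to 78300000 in colon. A library of each tissue stood apart from its own group. Replicate 4 of lung AP had 11.4% of its FPKM in mitochondrially encoded genes, against 4.77% to 6.61% in the other lung libraries, and replicate 2 of colon sham had 14.1%, against 7.02% to 11.6% in the other colon libraries. Counts are therefore also given without both of them, a choice made after seeing the data. The tables of the tissues were made separately. Each response is a difference within one table, and a level set beside one of the other tissue compares values from different tables.

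Changes with pancreatitis were in part shared by the tissues, and few could be shown to differ. Responses are differences of mean log2(FPKM + 1), AP minus sham, given with a standard error (SE); a gene passed where its limma adjusted p was under 0.05. In lung 95 genes passed (0.735% of those tested), 11 higher (0.0851%) and 84 lower (0.65%) with AP, and in colon 18 passed (0.139%), 9 higher (0.0696%) and 9 lower (0.0696%). The mean of both responses, called here the mean shift, passed for 517 genes (4%), 169 higher (1.31%) and 348 lower (2.69%). The difference, lung response minus colon response, passed for 3 genes (0.0232%), and all 3 were lower in lung relative to colon. By construction the SE of the difference is 2 times that of the mean shift, so these counts do not weigh shared against differing changes. Lung and colon libraries were fitted as independent, and a positive correlation between them would make the SE of the mean shift too small. Without the 2 libraries that stood apart, 99 genes passed in lung, 1188 in colon, 1064 in the mean shift and 6 in the difference. With each library scaled to the same total, 142 genes passed in the mean shift, 25 higher and 117 lower.

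Of the 84 genes lower in lung, 72 (85.7%) also had a negative change in colon, where 46.5% of all tested genes did, with a median change of -0.64 in lung and -0.17 in colon. Of the 11 genes higher in lung, 10 had a positive change in colon, as did 53.5% of all genes, with medians of 0.81 and 0.28. The 9 genes lower in colon had negative changes in lung in 7 cases, as did 55.5% of all genes. Their medians were -0.83 in colon and -0.18 in lung. The 9 genes higher in colon had positive changes in lung in 8, as did 44.5% of all genes, with medians of 0.72 and 0.07. Of the 517 genes of the mean shift, 422 passed in neither tissue alone and 511 had the same sign in both, a count that choosing genes by the mean of both responses largely fixes. The 95% interval of the difference lay within 1 log2 unit of 0 for 460 of the 517, as it did for 90.3% of all genes tested. A gene can pass in the mean shift through 1 tissue: 2 of the 3 genes of the difference also passed in the mean shift. The unadjusted limma p of the difference was under 0.05 for 49 of the 348 lower genes and 24 of the 169 higher ones. Over all 12932 genes it was so for 927. Across the 12932 genes the lung and colon responses correlated with a Pearson r of 0.40 and a Spearman rho of 0.44, and 65.1% had the same sign. Pearson r was 0.26 without the 2 libraries that stood apart. The genes share libraries and are not independent. Both responses were also more negative for longer transcripts across 12894 genes (Spearman rho -0.23 in lung and -0.26 in colon), and with that trend removed r was 0.38.

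**Figure D1:**
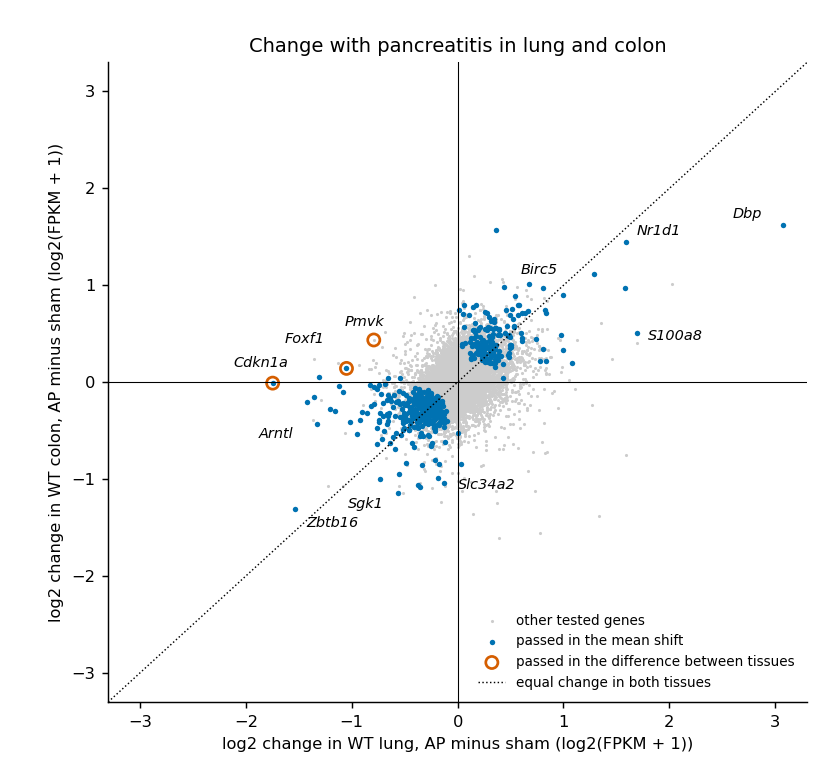
Change with pancreatitis of each of the 12932 tested genes, as the difference of mean log2(FPKM + 1), AP minus sham, in WT lung (horizontal axis) and WT colon (vertical axis). Blue points are the 517 genes that passed in the mean shift, most of them in the quadrants of equal sign; orange rings are Foxf1, Cdkn1a and Pmvk, the 3 genes that passed in the difference, and the dotted line marks equal changes.

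A single gene passed in both tissues alone. Nufip2, which encodes an RNA-binding partner of the fragile X protein and was singled out here after its values were seen, was at 11 FPKM in lung sham, 8.44 in lung AP, 10.8 in colon sham and 7.16 in colon AP. It fell by 0.35 in lung and by 0.52 in colon on the log2 scale (limma adjusted p = 0.0411 and 0.00892). In lung it passed in 7 of the 20 fits that left out 1 library. Without the 2 libraries that stood apart 13 genes passed in both, and Nufip2 was not among them (adjusted p = 0.0784 in lung).

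The genes that differed were lower with AP in lung and had no passing change in colon. Foxf1 (ENSMUSG00000042812) encodes a forkhead transcription factor of lung mesenchyme and pulmonary capillary endothelium. In lung sham its replicates were at 200.2, 224, 156, 159 and 171 FPKM, and in lung AP at 103, 85.8, 81.1, 72.2 and 94 FPKM. In colon sham they were at 10.4, 10.8, 9.40, 12.1 and 10.3 FPKM, and in colon AP at 13.1, 13.4, 12.6, 11.9 and 8.44 FPKM. Every lung library with AP was below every sham one, while the colon groups overlapped. Foxf1 fell by 1.05 ± 0.12 in lung (limma adjusted p = 0.000382) and its change in colon was 0.14 ± 0.12 (adjusted p = 0.558). The difference was -1.19 ± 0.18 (adjusted p = 0.0217).

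Cdkn1a (ENSMUSG00000023067) encodes p21, an inhibitor of cyclin-dependent kinases that p53 and glucocorticoids can induce. It was at 189, 269, 205, 172 and 277 FPKM in lung sham and at 82.6, 60.3, 42.2, 50.2 and 104 FPKM in lung AP. In colon it was at 144, 188, 148, 145 and 170.1 FPKM in sham and at 175, 181, 144, 161 and 131 FPKM in AP. The lung groups were separate and the colon groups overlapped. The lung response was -1.75 ± 0.20 (adjusted p = 0.000333), the colon response -0.01 ± 0.20 (adjusted p = 0.985) and the difference -1.74 ± 0.28 (limma adjusted p = 0.0286).

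Pmvk (ENSMUSG00000027952) encodes phosphomevalonate kinase, an enzyme of the mevalonate pathway that leads to cholesterol. Its replicates in lung were at 68.4, 79.6, 63.3, 52.7 and 67.0 FPKM in sham and at 37.3, 36.2, 31.6, 42.5 and 40.7 FPKM in AP. In colon they were at 27.4, 23.6, 19.2, 22.6 and 17.8 FPKM in sham and at 29.7, 26.9, 23.2, 30.7 and 42.3 FPKM in AP. The lung groups did not overlap, and the colon groups did. Pmvk fell by 0.79 ± 0.14 in lung (limma adjusted p = 0.00982), the colon change of 0.44 ± 0.14 did not pass (adjusted p = 0.131), and the difference was -1.23 ± 0.20 (adjusted p = 0.0286).

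**Figure D2:**
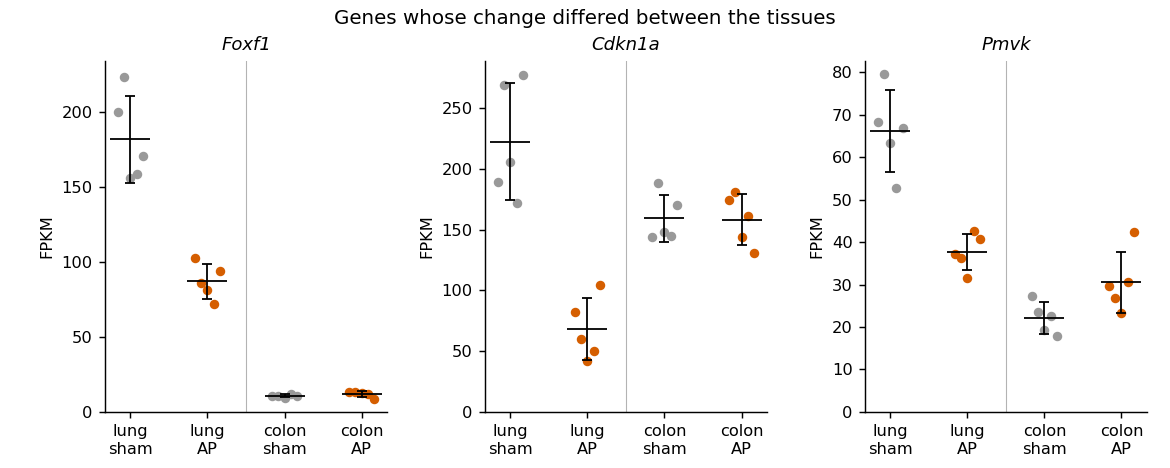
FPKM of Foxf1, Cdkn1a and Pmvk in each WT library (points, 5 per group), with the group mean (horizontal bar) and SD (error bar). In lung the AP libraries (orange) lie below the sham libraries (grey) in each panel, at means of 87.2 against 182 FPKM for Foxf1, 68.0 against 222 for Cdkn1a and 37.7 against 66.2 for Pmvk; in colon the groups overlap.

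These calls rested on single libraries to different degrees. None of the 3 passed with lung and colon libraries of the same number fitted as blocks. Leaving out 1 library at a time, Foxf1 passed in 15 of 20 fits, Cdkn1a in 11 and Pmvk in 8, and the difference stayed negative in each, with the highest adjusted p at 0.0717, 0.0847 and 0.0885. All 3 passed without the 2 libraries that stood apart (each adjusted p = 0.0309), as did Efnb1, Neurl1b and Nfil3. With each library scaled to the same total Foxf1 did not pass (adjusted p = 0.193), and Cdkn1a and Pmvk did. In a fit of all 39 libraries, where the variance is shared with the KO groups, none passed, at adjusted p of 1 for Foxf1 and Pmvk and 0.0807 for Cdkn1a. In the KO libraries of that fit the same difference between tissues was 0.0047 ± 0.36 for Foxf1, -0.14 ± 0.34 for Cdkn1a and 0.20 ± 0.35 for Pmvk. The difference between genotypes was not tested.

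The next genes in rank did not pass, and 927 of the 12932 had an unadjusted p under 0.05 for the difference. Tnfrsf10b, a death receptor for the ligand TRAIL and a target of p53, was at 6.51, 7.10, 3.93, 3.69 and 4.70 FPKM in lung sham and at 1.82, 2.27, 1.63, 1.59 and 1.59 FPKM in lung AP. In colon it lay between 2.77 and 3.54 FPKM in sham and between 2.39 and 3.99 FPKM in AP. Its lung groups were separate, and the difference was -1.09 ± 0.20 (limma adjusted p = 0.0763). Efnb1, a ligand of Eph receptors, differed by -0.80 ± 0.15 (adjusted p = 0.0763), and Neurl1b, a ubiquitin ligase of Notch signalling, by -0.59 ± 0.11 (adjusted p = 0.0763). Txndc11, a protein of the endoplasmic reticulum, was at -0.60 ± 0.12 (adjusted p = 0.104). Slc26a2, a sulfate transporter, was the one of these 8 genes with a positive difference, at 0.88 ± 0.18 (adjusted p = 0.115). It fell by 0.85 ± 0.12 in colon and its change in lung was 0.03 ± 0.12.

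The circadian clock genes that passed in the mean shift did so in both directions, with the activator Arntl lower and the genes Dbp and Nr1d1 higher in both tissues. The clock is a loop in which CLOCK, NPAS2 and BMAL1 (the product of Arntl) activate the Per, Cry, Nr1d and Dbp genes through E-boxes. The PER and CRY proteins repress their own activators, and the NR1D repressors compete with ROR activators on response elements in Arntl and Nfil3. DBP and TEF activate D-box genes that NFIL3 represses, among them Per3. Of 17 clock genes tested, 10 passed in the mean shift, where 4% of all genes did: 5 were higher (Dbp, Nr1d1, Nr1d2, Per3 and Tef) and 5 lower (among them Arntl, Npas2, Cry1 and Nfil3). The change had the same sign in both tissues for 15 of the 17, against 65.1% of all genes. None passed in the difference. The counts were the same, 5 higher and 5 lower, without the 2 libraries that stood apart. Over all 12932 genes 433 were then higher and 631 lower. With each library scaled to the same total the clock counts were 2 and 5, against 25 and 117 over all genes.

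The promoters of 4 of these genes are shown because they hold matches to letter patterns for elements of the loop. They belong to genes from both arms: Arntl and Nfil3 fell, and Per3 and Tef rose. They are RefSeq sequences in GRCm38.p6, an earlier build than the mm39 named by the submitters, 300 bases around the start site with most of them before it, 5′ to 3′ on the gene's strand. Capitals mark the E-box CACGTG, the D-box TTATGTAA and TNGGTCA, each searched on both strands. TNGGTCA is a loose pattern for the ROR element, with N for any base, so a match need not be such an element. Where a match lies on the opposite strand, its reverse complement is in capitals.
Arntl, chr7:113207215-113207514, plus strand: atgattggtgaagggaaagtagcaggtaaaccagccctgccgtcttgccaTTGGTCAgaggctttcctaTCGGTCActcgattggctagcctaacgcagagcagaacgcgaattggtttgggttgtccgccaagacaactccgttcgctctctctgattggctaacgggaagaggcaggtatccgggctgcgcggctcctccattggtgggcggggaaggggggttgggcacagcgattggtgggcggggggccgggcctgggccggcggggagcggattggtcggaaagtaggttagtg
Nfil3, chr13:52980990-52981289, minus strand: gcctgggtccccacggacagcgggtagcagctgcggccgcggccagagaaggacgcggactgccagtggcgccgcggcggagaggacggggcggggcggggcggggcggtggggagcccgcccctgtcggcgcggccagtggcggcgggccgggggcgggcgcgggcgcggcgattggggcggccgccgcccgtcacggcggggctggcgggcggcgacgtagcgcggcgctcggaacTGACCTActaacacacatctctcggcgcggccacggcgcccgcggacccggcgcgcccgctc
Per3, chr4:151044616-151044915, minus strand: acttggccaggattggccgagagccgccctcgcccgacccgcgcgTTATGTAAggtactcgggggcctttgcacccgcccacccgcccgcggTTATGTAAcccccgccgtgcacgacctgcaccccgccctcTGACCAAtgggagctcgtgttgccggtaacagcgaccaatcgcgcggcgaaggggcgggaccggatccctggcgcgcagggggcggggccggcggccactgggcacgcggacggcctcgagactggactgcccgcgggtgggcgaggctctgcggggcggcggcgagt
Tef, chr15:81802423-81802722, plus strand: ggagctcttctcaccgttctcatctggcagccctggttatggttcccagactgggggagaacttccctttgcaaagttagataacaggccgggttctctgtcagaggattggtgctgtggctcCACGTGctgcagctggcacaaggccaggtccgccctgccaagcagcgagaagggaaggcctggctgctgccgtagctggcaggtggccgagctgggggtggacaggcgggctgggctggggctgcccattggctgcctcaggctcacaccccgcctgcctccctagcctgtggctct
The Arntl promoter shown holds 2 matches to TNGGTCA and that of Nfil3 holds 1. The Per3 promoter holds 2 D-boxes and 1 match to TNGGTCA, and the Tef promoter shown holds 1 E-box. The table lists a second promoter for each of Arntl and Tef. That of Arntl overlaps the first and holds 3 matches to TNGGTCA. The match TAGGTCA near its end is absent from the promoter shown. The second promoter of Tef holds 1 E-box and 1 match to TNGGTCA. The promoter of Cry1, which fell, holds 1 E-box. Of all 32851 promoters in the table, 7.15% hold the E-box, 0.938% the D-box and 11% TNGGTCA. The promoters of Dbp, Nr1d1 and Nr1d2 hold none of the 3 within these 300 bases. A match is a match of letters only, and binding was not measured.

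Dbp, the output factor of the clock, had the largest rise of the genes that passed in the mean shift. It was at 3.29, 1.32, 4.78, 8.66 and 17.6 FPKM in lung sham and at 54.6, 26.6, 77.9, 69.8 and 49.3 FPKM in lung AP. Its colon values lay at 1.06, 1.25, 1.45, 2.14 and 2.51 FPKM in sham and at 14.9, 4.85, 9.17, 4.03 and 6.31 FPKM in AP. In each tissue every library with AP was above every sham library. The mean shift was 2.35 ± 0.30 (limma adjusted p = 0.000998), with 3.07 ± 0.43 in lung, which passed alone, and 1.62 ± 0.43 in colon, which did not (adjusted p = 0.0883). The difference of 1.45 had a 95% interval from 0.18 to 2.71 and did not pass (adjusted p = 0.617).

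Nr1d1, a repressor in the loop, was at 11.4, 15.9, 47.6, 66.0 and 70.9 FPKM in lung sham and at 126, 84.2, 113, 109 and 90.6 FPKM in lung AP. Colon libraries had it at 4.17, 7.13, 12.4, 10.7 and 15.0 FPKM in sham and at 24.4, 24.5, 36.2, 23.7 and 25.9 FPKM in AP. The groups of each tissue were separate, and the lung sham libraries spread over a wide range. The responses were 1.59 ± 0.40 in lung and 1.45 ± 0.40 in colon, and the mean shift was 1.52 ± 0.28 (limma adjusted p = 0.00998). The interval of the difference ran from -1.04 to 1.32.

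Arntl, the activator that opposes them in phase, was at 15.4, 16.5, 13.2, 13.4 and 10.4 FPKM in lung sham and at 5.17, 8.39, 3.56, 3.92 and 4.14 FPKM in lung AP. In colon it was at 20.5, 20.8, 23.5, 22 and 19.8 FPKM in sham and at 14.3, 17.5, 18.7, 17 and 11.4 FPKM in AP. AP and sham were again separate in both tissues. Arntl fell by 0.88 ± 0.12 in the mean shift (limma adjusted p = 0.00109) and by 1.33 ± 0.17 in lung, and its colon response of -0.43 ± 0.17 did not pass. The difference was -0.90 with an interval from -1.39 to -0.41 (adjusted p = 0.352).

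Nfil3, the repressor of D-box genes, passed in the mean shift through lung. It was at 13, 10.9, 7.84, 7.65 and 6.15 FPKM in lung sham and at 4.16, 3.87, 2.15, 2.11 and 3.04 FPKM in lung AP. Its colon values lay at 4.89, 9.21, 4.22, 4.76 and 5.14 FPKM in sham and at 5.83, 5.78, 4.99, 5.59 and 6.25 FPKM in AP. The lung groups were separate; in colon sham replicate 2 was above all other colon libraries. The lung response was -1.30 ± 0.19, the colon response 0.05 ± 0.19 and the difference -1.36 ± 0.27 (limma adjusted p = 0.115). Without the 2 libraries that stood apart the difference passed.

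Among the other clock genes, the mean shift was 0.73 for Nr1d2, 0.53 for Per3, 0.48 for Tef, -0.71 for Npas2 and -0.70 for Cry1 (limma adjusted p from 0.0195 for Nr1d2 to 0.0288 for Tef). Nr1d2, Per3 and Npas2 also passed in lung alone, and none passed in colon alone. The 7 clock genes that did not pass were Per1, Per2, Cry2, Clock, Bhlhe40, Wee1 and Usp2, with mean shifts between -0.41 and 0.24.

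**Figure D3:**
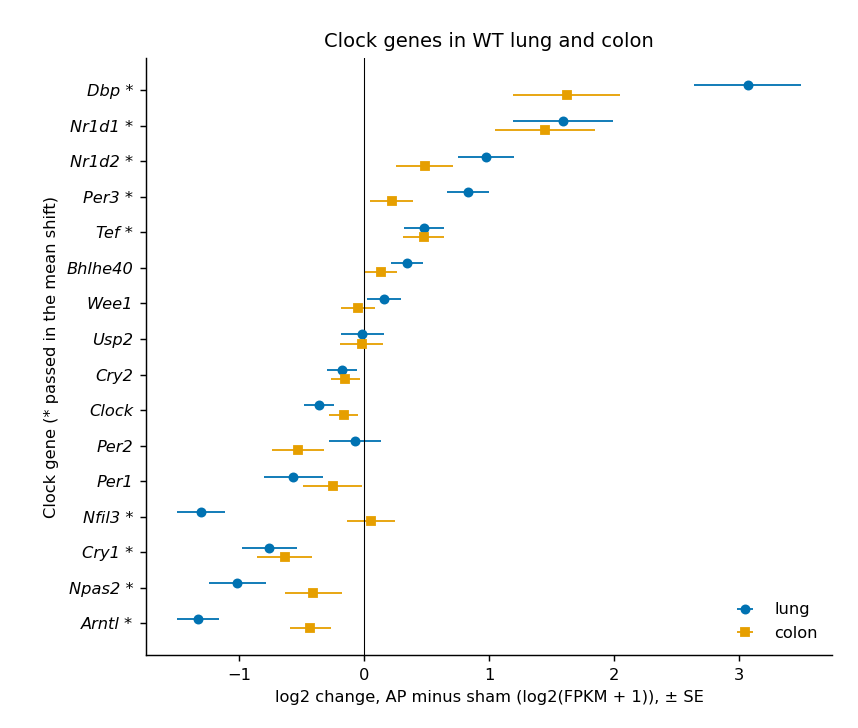
Change of 16 of the 17 tested clock genes, as the difference of mean log2(FPKM + 1), AP minus sham, with SE, in WT lung (blue circles) and WT colon (orange squares); stars mark the 9 of them that passed in the mean shift. Dbp and Nr1d1 lie to the right and Arntl, Npas2 and Cry1 to the left of 0 in both tissues, while Nfil3 lies to the left in lung (-1.30) and near 0 in colon (0.05).

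Among genes that glucocorticoids induce, those that passed in the mean shift were lower with AP. Glucocorticoids are adrenal steroids that rise with stress, follow the daily cycle and dampen inflammation through their receptor. Of 20 such genes, 5 passed and fell (Cdkn1a, Sgk1, Tsc22d3, Zbtb16 and Angptl4), where 2.69% of all genes were called lower. None of the 20 had a positive mean shift, as 49.8% of all genes did, with medians of -0.61 in lung and -0.24 in colon, where the medians over all genes were -0.02 and 0.02. Cdkn1a was the one member that passed in the difference, and with a colon change of -0.01 it passed in the mean shift through lung. Cdkn1a is also a target of p53. Of 17 p53 targets tested, Cdkn1a and Tnfrsf10b passed in the mean shift, both lower, where 2.69% of all genes were called lower. Tnfrsf10b changed by -0.04 in colon, so that it too passed through lung.

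Sgk1, a kinase that glucocorticoids induce, was at 86.2, 78.3, 74.8, 57.7 and 73.5 FPKM in lung sham and at 45.5, 48.7, 41.1, 46.3 and 70.3 FPKM in lung AP. Colon libraries had it at 64.8, 149.9, 78.6, 68.1 and 60.1 FPKM in sham and at 34.2, 20.2, 42.1, 63.6 and 29.4 FPKM in AP. An AP library of each tissue reached into the range of sham. Sgk1 fell by 0.85 ± 0.18 in the mean shift (limma adjusted p = 0.0169), and by 0.73 without the 2 libraries that stood apart.

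Zbtb16, a zinc finger repressor, had the largest fall of the mean shift, -1.42 ± 0.34 (limma adjusted p = 0.0275). It was at 74.6, 81.5, 87.5, 62.8 and 60.4 FPKM in lung sham and at 56.4, 41.3, 10.3, 5.77 and 56.2 FPKM in lung AP. In colon it was at 4.80, 2.25, 7.64, 5.27 and 6.50 FPKM in sham and at 1.67, 3.39, 0.876, 0.530 and 1.48 FPKM in AP. The lung groups were separate but the AP libraries fell into a low pair and 3 higher ones, and in colon 1 library of each group crossed. Tsc22d3, which encodes the anti-inflammatory protein GILZ, fell by 0.62 ± 0.13 (limma adjusted p = 0.0141), with 306 to 464 FPKM in lung sham against 157 to 305 in lung AP, and 45.9 to 91.2 in colon sham against 37.8 to 47.1 in colon AP.

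Other large falls of the mean shift, ranked by the smaller of the 2 responses, included those of Abcb1a at -0.75, Rnf125 at -0.74, Klf15 at -0.64, Angptl4 at -0.59, Slc10a6 at -0.55, Dst at -0.54 and Cry1 (limma adjusted p from 0.00629 for Slc10a6 to 0.0423 for Dst). Abcb1a is a drug efflux pump, Klf15 a metabolic transcription factor, Angptl4 an inhibitor of lipoprotein lipase, and Slc10a6 a carrier of steroid sulfates. The genes of fasting and fatty acid oxidation gave 4 passing members of 18, all lower, where 2.69% of all genes were called lower. In the fit of all 39 libraries 0 of the 18 passed. They were Angptl4, the acyl-CoA thioesterases Acot1 at -0.36 and Acot2 at -0.47, and Cpt1a, the entry enzyme of mitochondrial fatty acid oxidation, at -0.28. The medians of the 18 were -0.15 in lung and -0.30 in colon, or -0.18 in colon without replicate 2 of sham.

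Among genes of cell division, those that passed in the mean shift were higher with AP. They were 9 of the 25 tested, where 1.31% of all genes were called higher, and none passed in a single tissue or in the difference. All 25 had positive values in both tissues, with medians of 0.45 in lung and 0.55 in colon. Scaling each library to the same total left 2 passing, where 25 of all 12932 genes were called higher. In the fit of all 39 libraries 1 passed, against 15 called higher among all genes. Without the 2 libraries that stood apart 17 passed, against 433 called higher among all genes. The passing members were higher in each case.

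Birc5 encodes survivin, a protein of the mitotic spindle. It was at 1.84, 1.27, 1.59, 1.13 and 2.91 FPKM in lung sham and at 4.75, 5.14, 2.60, 1.61 and 5.76 FPKM in lung AP. Its colon values lay at 29.2, 23.9, 13.4, 20.3 and 14.7 FPKM in sham and at 39.2, 26.7, 31.7, 37.0 and 74.0 FPKM in AP. The groups overlapped in both tissues, and replicate 4 was the lowest of lung AP. The mean shift was 0.89 ± 0.20 (limma adjusted p = 0.0230), and the difference of -0.17 had an interval from -1.01 to 0.68. The ubiquitin enzyme Ube2c of mitotic exit had 0.85, Top2a, a topoisomerase of dividing cells, 0.78, Pclaf, a partner of PCNA, 0.78, Ccna2, cyclin A, 0.70, and the kinase partner Cks2 0.55, with limma adjusted p between 0.0131 for Cks2 and 0.0496 for Top2a. Outside that list, 3 genes linked to cell division passed in colon alone (limma adjusted p = 0.0416 for each). They were Cks1b, at 8.08 to 14.2 FPKM in sham and 18 to 28.9 in AP, the histone gene H2afx at 0.74 and Bora, an activator of Aurora A, at 0.79. Leaving out 1 library at a time, Cks1b passed in 8 of 20 fits, H2afx in 6 and Bora in 7. With the variance of colon alone, 0 genes passed there.

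The calcium-binding proteins S100A8 and S100A9 are abundant in the neutrophil cytosol, and their genes were higher. S100a9 was at 119, 161, 138, 89.3 and 54.1 FPKM in lung sham and at 355, 268, 265, 434 and 291 FPKM in lung AP. Colon libraries had it at 0.142, 1.11, 1.31, 0.159 and 0.237 FPKM in sham and at 3.49, 0.530, 1.12, 0.718 and 8.29 FPKM in AP. The lung groups were far apart, and the colon groups overlapped at levels near the filter. The mean shift of S100a9 was 1.28 ± 0.28 (limma adjusted p = 0.0205) and that of S100a8 1.10 ± 0.24 (adjusted p = 0.0195). S100a8 also passed in lung alone at 1.69 ± 0.34. In colon AP it was at 5.35 FPKM in replicate 5 and at 0.470 to 1.24 FPKM in the others, near the filter.

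Of 21 genes of mature neutrophils 7 could be tested in both tissues, and 3 passed in the mean shift, all higher, where 1.31% of all genes were called higher: S100a8, S100a9 and Cd177. With each library scaled to the same total, and in the fit of all 39 libraries, 1 of the 7 passed. Over all 12932 genes 142 and 55 passed in these fits. The other 14 were under the filter in at least one tissue. The summed FPKM of the 21 genes was 260 to 485 in lung sham and 718 to 1077 in lung AP, and 101 to 126 in colon sham and 74.9 to 159 in colon AP, so that the groups were separate in lung and overlapped in colon. Ly6g and Cd177 made up 85.5% to 93.2% of the sum in colon sham and 74.4% to 96.5% in colon AP, and under 1% in each lung group; the other 19 genes summed to 8.14 to 14.6 FPKM in colon sham and 5.53 to 32.4 in colon AP. In bulk tissue more cells of a type and more RNA per cell cannot be told apart. Which cells of the colon gave the reads of Ly6g and Cd177 was not tested. Ly6g, a surface marker of mouse neutrophils, was at 0.239 to 1.64 FPKM in lung sham and 1.60 to 3.27 in lung AP, but at 46.5 to 71.7 in colon sham and 10.3 to 76.8 in colon AP. Its difference was 1.56 ± 0.51 (limma adjusted p = 0.483). Cd177, the neutrophil surface gene deleted in the KO animals, had log2 responses of 0.49 ± 0.18 in lung and 0.47 ± 0.18 in colon. Its means were 2.01 and 3.19 FPKM in lung sham and AP and 43.2 and 60.7 FPKM in colon sham and AP. The mean shift was 0.48 ± 0.13 (limma adjusted p = 0.0390), and the interval of the difference ran from -0.51 to 0.56. It did not pass without the 2 libraries that stood apart (adjusted p = 0.0558). The exact two-sided permutation p of its FPKM was 0.0714 in lung and 0.0238 in colon, where 0.00794 is the smallest that 5 against 5 allows.

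**Figure D4:**
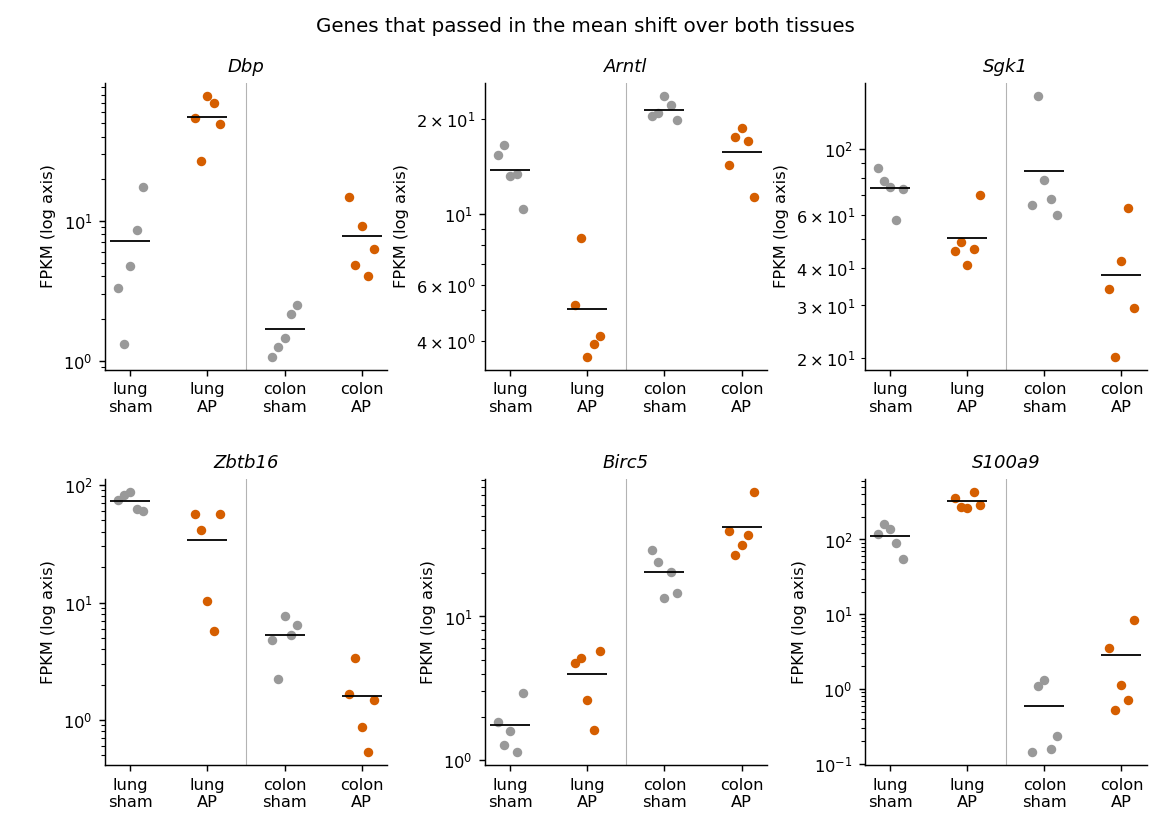
FPKM, on log axes, of 6 genes that passed in the mean shift, in each WT library (points, 5 per group; grey sham, orange AP), with the group mean as a horizontal bar. Dbp, Birc5 and S100a9 have higher means and Arntl, Sgk1 and Zbtb16 lower means with AP in both tissues, at levels that differ between lung and colon; Dbp and Arntl are the 2 whose AP and sham libraries do not overlap in either tissue.

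Further rises of the mean shift were those of Ptprcap, a partner of the lymphocyte phosphatase CD45, at 1.20 ± 0.30 (limma adjusted p = 0.0307), and of Mir142b, a microRNA locus of blood cells whose reads may belong to its host transcript, at 0.95. Ptprcap was at 0.778 to 2.49 FPKM in lung sham and 3.59 to 6.58 in lung AP, and at 1.11 to 4.59 in colon sham and 1.67 to 17.2 in colon AP. The summed FPKM of 25 genes of T and NK cells overlapped, with 234 to 495 in lung sham, 175 to 781 in lung AP, 214 to 321 in colon sham and 66.4 to 621 in colon AP, and none of the 23 tested passed in any comparison. The interferon gamma and MHC genes had positive mean shifts for 27 of 27, with medians of 0.54 in lung and 0.16 in colon, and none passed. The colon median ranged from 0.03 to 0.47 leaving out 1 library at a time. Pecam1, a marker of endothelium, had a mean shift of -0.23 (adjusted p = 0.124).

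Several early response genes were among those lower in lung. Klf4, a transcription factor of epithelium and endothelium, was at 111, 109.7, 63.7, 63.7 and 92 FPKM in lung sham and at 37.8, 30.4, 27.9, 22.9 and 40.7 FPKM in lung AP. In colon it lay between 261 and 382 FPKM in sham and between 228 and 329 FPKM in AP. The lung groups were separate and the colon groups overlapped. Its responses were -1.42 ± 0.18 (limma adjusted p = 0.000382) and -0.20 ± 0.18, with a difference of -1.22 ± 0.25 that did not pass (adjusted p = 0.116).

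Klf2, a factor that blood flow induces in endothelium, fell by 1.08 ± 0.23 in lung (limma adjusted p = 0.0339), the phosphodiesterase Pde4b by 1.36 ± 0.21 and the nuclear factor Csrnp1 by 1.36. In colon the changes of Klf2, Pde4b and Csrnp1 were -0.10, -0.15 and 0.24. None of the 3 passed in the difference (adjusted p = 0.483 for Klf2 and 0.238 for Pde4b and Csrnp1). Of 18 immediate early genes, Klf4 and Klf2 passed in lung, where 0.65% of all genes were called lower, and without the 2 libraries that stood apart Klf2 did not (adjusted p = 0.0591). The median of the 18 was -0.24 in lung. In colon it was 0.10, and -0.06 without replicate 2 of AP. Wfdc17 and Rnase6, both of myeloid cells, rose by 1.08 and 0.81 in lung.

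Genes of lipogenesis and sterol synthesis had a higher median with AP in colon than in lung, and no member of the list passed in the difference. Cells make cholesterol through the mevalonate pathway, under the control of SREBP factors. The 19 genes tested had a median of -0.10 in lung and 0.46 in colon, and the median of their differences was -0.54, against -0.04 over all genes. The difference was positive for 2 of the 19 and for 41.8% of all genes. The median of the differences was -0.42 without the 2 libraries that stood apart. Pmvk, which passed in the difference with the same sign, is an enzyme of the mevalonate pathway outside the list. Unlike the list median, its larger change was in lung, at -0.79, which passed, while its colon change of 0.44 did not pass.

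Hmgcs1, an early enzyme of the pathway, was at 60.4, 56.4, 53.1, 40.02 and 42.9 FPKM in colon sham and at 66.2, 68.6, 71.2, 126 and 98.7 FPKM in colon AP. In lung it lay between 22.3 and 30.4 FPKM in sham and between 21.1 and 34.9 FPKM in AP. The colon groups were separate and the lung groups overlapped. Its colon response of 0.73 ± 0.17 did not pass (limma adjusted p = 0.0713), and neither did the difference of -0.82 ± 0.24 (adjusted p = 0.457). Without the 2 libraries that stood apart the colon response of Hmgcs1 was 0.77 and passed (adjusted p = 0.0254). Fdft1, squalene synthase, had a colon response of 0.78 ± 0.17 (adjusted p = 0.0632), also with separate groups there, and passed in the mean shift at 0.46 ± 0.12 (limma adjusted p = 0.0385). Of the 19, 1 passed in colon, where 18 of all 12932 genes did. Without the 2 libraries that stood apart 7 of the 19 passed in colon, where 1188 of all 12932 genes did. The summed FPKM of 29 genes of colonic epithelium was 16881 to 33390 in colon sham and 16087 to 24452 in colon AP; its part in these values was not tested.

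The 4 largest falls among the 9 genes that passed lower in colon were those of Slc34a2, Scnn1g, Slc26a2 and Scnn1b, which encode carriers or channel subunits. The colon calls rest on a variance shared with lung: with the variance of colon alone limma called 0 genes, with 1604 at an unadjusted p under 0.05. Slc34a2, a sodium-phosphate carrier, was at 15.9, 29.7, 28.5, 15.3 and 16.5 FPKM in colon sham and at 9.11, 12.1, 6.93, 9.95 and 9.23 FPKM in colon AP. The groups were separate, and its response was -1.04 ± 0.17 (limma adjusted p = 0.0150). In lung, where it is a marker of alveolar type 2 cells, it was at 515 to 734 FPKM in sham, and the response was -0.13 ± 0.17.

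The epithelial sodium channel takes up salt and water in the distal colon under aldosterone, through the kinase SGK1. Genes of 2 of its subunits fell in colon, Scnn1g by 0.99 ± 0.16 (limma adjusted p = 0.0150) and Scnn1b by 0.84 ± 0.14 (adjusted p = 0.0168). Scnn1a, the gene of another subunit, was not among the genes that passed in colon. Scnn1g was at 1.28 to 3.82 FPKM in colon sham and 0.209 to 0.884 in colon AP, and Scnn1b at 3.17 to 5.69 and 1.10 to 2.50, without overlap. In colon Scnn1g met the filter of 1 FPKM through the sham libraries alone, so its being lower with AP there was in part fixed by the filter. In lung Scnn1g was at 44.2 to 58.7 FPKM in sham and 41.2 to 53.2 in AP, a change of -0.18 ± 0.16. The differences were 0.81 and 0.66 and did not pass (adjusted p = 0.454 and 0.457).

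Slc26a2 went from 58.1, 79.2, 86.5, 59.1 and 66.8 FPKM in colon sham to 30.6, 43.9, 42.4, 45.4 and 30.6 FPKM in colon AP, with separate groups. Camsap2, a protein of microtubule ends, fell by 0.83 in colon and Cyp2d22, a cytochrome P450, by 0.67. Besides Cks1b, H2afx and Bora, the rises in colon included Alox5ap, an activator of leukotriene synthesis, at 0.54 and Klhdc4 at 0.48.

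No adipocyte gene passed, and their medians had opposite signs in the tissues. Of the 7 tested, 6 had positive changes in lung and 6 negative ones in colon, with medians of 0.40 and -0.41. The colon median was -0.11 without replicate 2 of colon sham, and the lung median ranged from 0.13 to 0.77 leaving out 1 library at a time, with its lowest value without replicate 5 of lung sham. Cfd, which encodes adipsin, ranged from 5.22 to 85.7 FPKM in lung sham and from 15.0 to 78.3 FPKM in colon sham, and its difference of 2.71 ± 0.87 did not pass (limma adjusted p = 0.470). The summed FPKM of the 12 listed genes was 131 to 255 in lung sham, 132 to 243 in lung AP, 96.9 to 278 in colon sham and 79.8 to 136 in colon AP. These ranges overlapped within each tissue, and the part of attached fat was not tested.

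**Figure D5:**
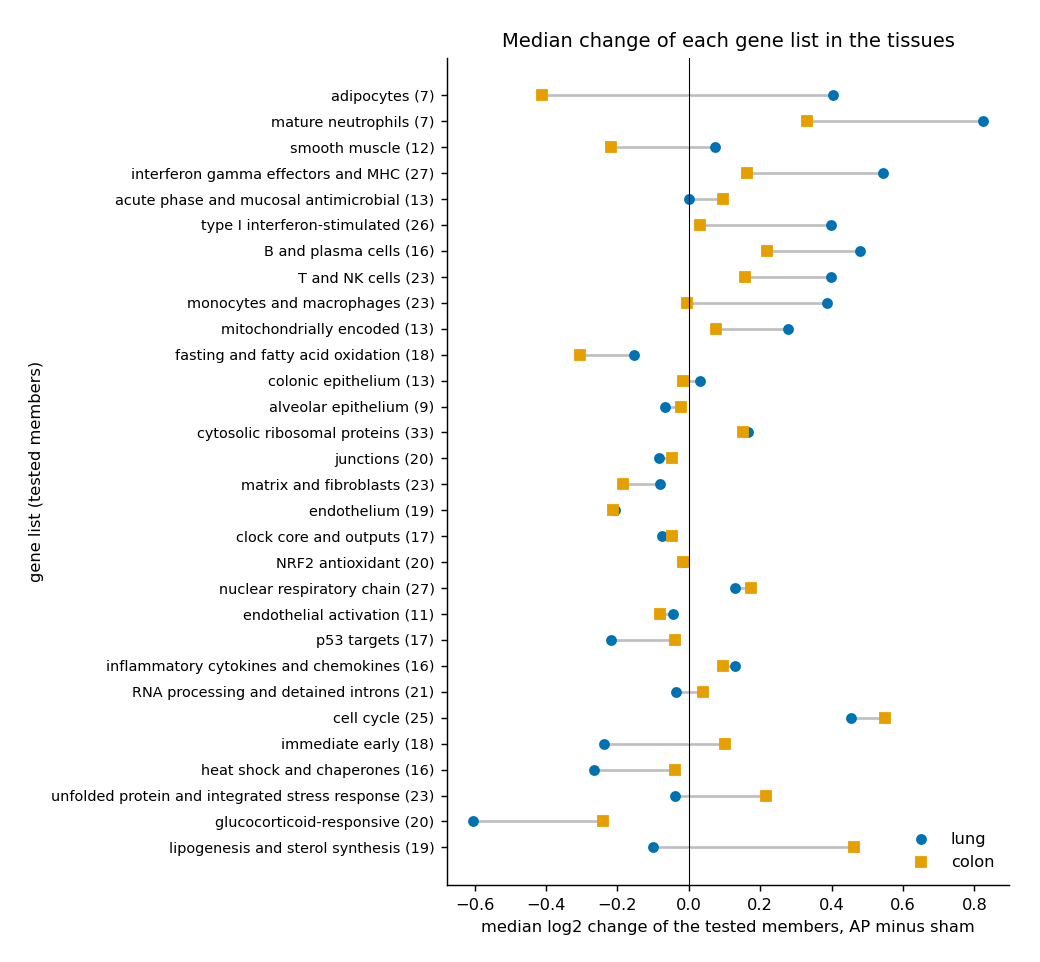
Median change of the tested members of each gene list with at least 5 of them, as log2(FPKM + 1), AP minus sham, in WT lung (blue circles) and WT colon (orange squares), ordered by the median difference between the tissues; the number tested is in brackets. Cell division genes lie at 0.45 and 0.55 and glucocorticoid-responsive genes at -0.61 and -0.24. The medians of the lipogenesis and sterol synthesis list (-0.10 and 0.46) and of the adipocyte genes (0.40 and -0.41) lie on opposite sides of 0.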

How the data were processed

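RNA-seq of lung and colon was deposited by the authors as 2 tables of FPKM, 1 per tissue, with 39 libraries in all. The submitters' processing notes name HISAT2 2.1.0, StringTie 1.3.3b and the build mm39; the sources used here do not give their settings or whether counting used strand. Reads of overlapping genes or near-identical copies may therefore be split between them.

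The tables were joined on the Ensembl gene identifier (55357 genes, 52081 with a symbol). A gene was kept where 4 or more WT libraries of each tissue had it at 1 FPKM or above. The values log2(FPKM + 1) were fitted with limma 3.58.1 in R 4.3.3 (4 group means, eBayes with trend), so low genes have understated changes. The contrasts were AP minus sham in lung, the same in colon, their difference and their mean, with Benjamini-Hochberg adjustment over all 12932 genes and a threshold of 0.05. Cd177 was also tested by exact permutation. Depth came from the FPKM steps of single-transcript genes, of which 98.4% to 98.7% gave whole counts within 0.01 in each library.

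The members and the 34 gene lists were chosen with earlier results of these data known. Named genes were Cd177, Pecam1 and the clock list; the 8 lowest p-values of the difference; the 10 rises and 10 falls of the mean shift ranked by the smaller single-tissue change; 6 genes each way per tissue; and up to 4 members of a list by each of the difference and the mean shift. Predicted genes, pseudogenes, receptor segments and genes with no symbol were left out, as were genes under 2 FPKM in every group for the ranked comparisons. Some genes that meet these rules are not reported here. RefSeq promoters (GRCm38.p6) were found for 41 of 58 named genes. Lung and colon libraries with the same number were not treated as pairs. The alternatives were another pseudocount, filter and scaling, other variance models, array weights, a replicate block, a length correction and leaving out libraries. The fits were tested on simulated data. Tables were handled with pandas 2.3.3 (Python 3.11.15), and figures were drawn with matplotlib 3.10.9.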

Additional observations from a re-analysis of the deposited data

Results flagged for a closer look

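The change with pancreatitis differed between lung and colon, by the test of the difference itself, for Cdkn1a (-1.74), Foxf1 (-1.19) and Pmvk (-1.23), each as the log2 lung response minus colon response.

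In 30 of 304 groups of values the highest or lowest library lay far from the other 4 of its group; chance gives this in about 1 in 20 groups. Many of these were replicate 2 of colon sham. It was the highest of its group for Abcb1a (144 FPKM), Acot2 (4.61 FPKM), Ccl11 (7.95 FPKM), Cfd (78.3 FPKM), Cry1 (23.8 FPKM), Mertk (10.9 FPKM), Nfil3 (9.21 FPKM), Sgk1 (149.9 FPKM), Tat (18.5 FPKM) and Wfdc17 (21.9 FPKM), and the lowest for Per2 (2.81 FPKM). Its FPKM summed to 699287.

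In lung AP, replicate 4 stood apart in its summed FPKM (619215) and its mitochondrially encoded share (11.4%), and for Ly6g (3.27 FPKM) and Pecam1 (199 FPKM). Replicate 2 did so for Clock (7.13 FPKM) and Npas2 (2.69 FPKM), and replicate 5 for Csrnp1 (35 FPKM), Cyp2d22 (48.9 FPKM) and Sgk1 (70.3 FPKM). In lung sham, replicate 1 stood apart for Alox5ap (30.3 FPKM) and Ptprcap (2.49 FPKM), and replicate 5 for Ccna2 (2.41 FPKM) and in its summed FPKM (567491).

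In colon sham, replicate 1 stood apart for Ccna2 (28.1 FPKM) and Klf2 (11.8 FPKM). In colon AP, replicate 5 stood apart for Birc5 (74.0 FPKM) and S100a8 (5.35 FPKM), and replicate 3 for Nr1d1 (36.2 FPKM).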

How the results depend on the processing

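No named gene with a passing change reversed its direction under any alternative run, but the counts of passing genes moved with the model. They are given in the order lung, colon, difference and mean shift where they moved by over 1.5 times. With no filter on low values 149 genes passed in lung, 6 in the difference and 268 in the mean shift. With each library scaled to the same total 38 passed in lung, 142 in the mean shift (25 higher and 117 lower) and 0 in both tissues, and with mitochondrially encoded genes left out of that total 47 passed in lung, 28 in colon and 266 in the mean shift (50 higher and 216 lower). With upper quartile scaling the counts were 59 in lung, 75 in colon and 3 in both tissues. In the fit of all 39 libraries they were 14 in lung, 1 in colon, 0 in the difference, 55 in the mean shift and 0 in both tissues. With the variance of each tissue alone 0 passed in colon and 0 in both. With array weights the counts were 1532 in lung, 28 in colon, 21 in the difference, 1819 in the mean shift and 6 in both. With the length trend removed 10 passed in colon. Without replicate 4 of lung AP and replicate 2 of colon sham together, an alternative chosen after seeing the data, 1188 passed in colon, 6 in the difference, 1064 in the mean shift and 13 in both. The cause of these moves was not tested.

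A lung library and the colon library of the same condition and number correlated between -0.102 and 0.520 in their deviations from the group means, over 10 pairs, with 6 over 0.1, and 5 correlated best with their own number. Same-numbered AP and sham libraries of a tissue correlated between -0.50 and 0.38. They form the block for the single tissues and the mean shift, and the lung and colon libraries form it for the difference. No fit of the mean shift allowed for a correlation between lung and colon libraries of the same number. With the replicate block 30 genes passed in lung, 0 in colon, 0 in the difference, 53 in the mean shift and 0 in both tissues. The difference had adjusted p = 0.0823 for Foxf1, 0.0783 for Cdkn1a and 0.0576 for Pmvk with that block, and in the mean shift 1 of the 25 cell division genes and 0 of the 7 neutrophil genes passed.

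Leaving out 1 library at a time, the counts ranged from 31 to 196 in lung, from 4 to 379 in colon, from 0 to 7 in the difference, from 180.0 to 1513 in the mean shift and from 0 to 12 in both tissues. The mean change of Cd177 ranged from 0.929 to 1.57 FPKM in lung and from 13.5 to 20.2 FPKM in colon. The highest counts came without replicate 2 of colon sham (196 in lung, 7 in the difference and 1513 in the mean shift) and without replicate 2 of colon AP (379 in colon, 829 in the mean shift). The lowest came without replicate 2 of lung sham (31 in lung, 180.0 in the mean shift) and without replicate 5 of colon AP (4 in colon). The difference had 0 passing genes without replicate 1 of colon AP, replicates 3 or 5 of colon sham, or replicates 2 or 4 of lung AP. Levels near 1 FPKM, such as S100a9 in colon, limit the precision of a fold there.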

Other observations

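Some genes could be tested in 1 tissue only, since they were under the filter in the other. Each tissue was fitted alone here, with its own variance and adjustment. In lung 2119 such genes were among the 15051 fitted, of which 121 passed. Of the 2119, 12 passed, 5 of them higher with AP. They included Stfa2l1, a stefin of neutrophils, at 1.25 (limma adjusted p = 0.0479), Mcemp1, a membrane protein of mast cells and myeloid cells, at 0.46 (adjusted p = 0.0492), and Wnt7a, a secreted ligand, at 0.74 (adjusted p = 0.0413). Among those lower were Slc38a4, an amino acid transporter, at -0.91 (limma adjusted p = 0.0167), Kcnj15, a potassium channel, at -0.55 (adjusted p = 0.0239), and Inka2, an inhibitor of PAK4, at -0.54 (adjusted p = 0.00853). In colon 1313 such genes were fitted and 0 passed with limma, with 160 at an unadjusted p under 0.05.

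Several other gene groups had few or no passing members. Of 26 type I interferon-stimulated genes none passed, with medians of 0.40 in lung and 0.03 in colon, the latter from -0.19 to 0.30 leaving out 1 library at a time. Of 16 genes of B and plasma cells none passed, with medians of 0.48 and 0.22, the latter from 0.0087 to 0.59. Of 23 genes of monocytes and macrophages, Clec12a at 0.50 and Mertk at -0.30 passed in the mean shift, where 4% of all genes did. Of 16 heat shock genes, Dnajb1, an HSP40 co-chaperone, passed at -0.50, and the difference was negative for all 16, where 41.8% of all genes had a positive one. Ccl11, the eosinophil attractant eotaxin, was the 1 member of 16 cytokine and chemokine genes that passed in the mean shift, at 0.50. With 1 passing member of 16 each, the heat shock and cytokine lists lay near the share of all genes. Of 12 smooth muscle genes none passed, with medians of 0.07 in lung and -0.22 in colon. The medians were -0.03 in lung without replicate 4 of lung AP and 0.12 in colon without replicate 5 of colon AP. Their summed FPKM ranged from 506 to 2726 in colon AP against 1272 to 1980.3 in colon sham.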
